A study of Mus musculus with 14 samples.

Results

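Described here are 10 genes of epithelial identity and of the switch away from it, in mouse embryonic stem cells (ESCs) with and without the long noncoding RNA Trincr1: the transcription factors Snai1, Zeb1 and Grhl2, the splicing regulator Esrp1, the polarity and trafficking genes Crb3 and Rab25, the adhesion genes Cdh1, Cdh2 and Epcam, and the intermediate filament gene Vim. They were selected by gene symbol from the RNA-seq table with their levels in these samples already known, so their levels and differences are a description and no test is given for them. They are 10 of the 41204 genes of that table, and all 10 were among the 15430 genes with a mean above 0.2 FPKM that were fitted.

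Poly(A) RNA was sequenced from wild-type and Trincr1-/- ESCs in 2 media, with 2 samples in each of the 4 groups. All ESCs were from a C57BL/6(F) x 129/sv(M) cross at the stage of 3.5 days. The medium 2i + LIF was N2B27 with the MEK inhibitor PD0325901 (1 µM), the GSK3 inhibitor CHIR99021 (3 µM) and leukemia inhibitory factor (1000 units per ml). For PD + LIF, ESCs spent 24 h in 2i + LIF and were then kept for 4 days without CHIR99021. A separate experiment pulled down RNA with FLAG-tagged TRIM71, an RNA-binding protein, from ESCs in 2i + LIF that overexpressed this tagged protein. Trincr1 was deleted with a pair of guide RNAs that flank exons 2 to 4. The labels do not say which knockout clone was sequenced or whether the 2 samples of a group came from separate cultures, so the spread between samples may be technical. If the knockout samples came from 1 clone, a trait of that clone and the loss of Trincr1 cannot be told apart, in either medium. With bulk RNA, fewer cells of a type and less RNA per cell cannot be told apart.

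As background, epithelial cells are joined by E-cadherin, the product of Cdh1, and carry an apical membrane domain that is laid out by the Crumbs complex. SNAI1 is a zinc finger repressor that binds the E-box CAGGTG in promoters of epithelial genes, and it is best known for driving epithelial to mesenchymal transition (EMT). GRHL2 activates genes of epithelial junctions and is usually found on the opposite side of that transition. Mouse ESCs grow as E-cadherin-joined colonies and share many junction genes with epithelia, while they also contain vimentin.

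RefSeq promoter windows (GRCm38.p6) were searched for 5 of the 10 genes. No window was at hand for Grhl2, Cdh1 and Esrp1, and Cdh2 and Zeb1 were left out of the search. The 4 windows with an E-box are printed here because this is the motif SNAI1 recognises, with the 250 bases upstream of the start site, 5' to 3' on the strand of the gene. Capitals mark CAGGTG or its reverse complement CACCTG. The regions are chr17:57061951-57062200 on the plus strand for Crb3, chr3:88548280-88548529 on the minus strand for Rab25, chr17:87635729-87635978 on the plus strand for Epcam and chr2:167537945-167538194 on the plus strand for Snai1.
Crb3: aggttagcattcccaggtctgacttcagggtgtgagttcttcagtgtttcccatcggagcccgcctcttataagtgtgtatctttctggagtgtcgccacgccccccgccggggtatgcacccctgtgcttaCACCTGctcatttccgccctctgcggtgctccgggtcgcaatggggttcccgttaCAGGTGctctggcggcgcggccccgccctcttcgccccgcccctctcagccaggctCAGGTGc
Rab25: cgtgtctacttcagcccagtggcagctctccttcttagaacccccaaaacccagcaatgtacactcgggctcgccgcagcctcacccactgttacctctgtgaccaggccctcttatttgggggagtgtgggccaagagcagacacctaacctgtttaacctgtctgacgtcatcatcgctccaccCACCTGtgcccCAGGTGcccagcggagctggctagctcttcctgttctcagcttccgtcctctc
Epcam: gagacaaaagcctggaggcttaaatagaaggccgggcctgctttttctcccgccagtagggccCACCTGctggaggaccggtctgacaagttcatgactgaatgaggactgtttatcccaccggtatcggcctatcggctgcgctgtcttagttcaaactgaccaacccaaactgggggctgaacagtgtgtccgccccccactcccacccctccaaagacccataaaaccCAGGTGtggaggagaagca
Snai1: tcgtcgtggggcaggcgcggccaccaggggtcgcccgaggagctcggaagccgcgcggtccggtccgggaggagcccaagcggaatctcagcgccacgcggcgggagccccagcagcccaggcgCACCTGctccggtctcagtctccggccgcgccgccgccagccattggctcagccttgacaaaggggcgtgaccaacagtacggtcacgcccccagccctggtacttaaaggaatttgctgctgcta

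The upstream window of Crb3 held 3 E-boxes, whose first bases lay at -118, -63 and -7 from the start site. Rab25 held 2 that were 5 bases apart, at -64 and -53, and Epcam held 2, at -187 and -19. Snai1 held 1, at -126, and the window of Vim held none. Among 32851 RefSeq windows of the same length, 17.2% held at least 1 E-box on either strand, 2.06% at least 2 and 0.247% at least 3. GC content was 63.2% for Crb3, 58.4% for Rab25 and Vim, 56.4% for Epcam and 70.0% for Snai1. The median over all windows was 52.4%, and the shares were not matched for GC content. The motif AACNNGTT, the core recognised by grainyhead-like factors, was found once among the 5 genes, at -102 of Rab25, and in 3.64% of all windows. Neither the full grainyhead-like motif AACCGGTT, present in 0.116% of all windows, nor the TCF/LEF motif CTTTGAT, present in 3.21%, was found in the 5 windows. RefSeq gives a second start site for Crb3, downstream of the one used, from which the same 3 E-boxes lie at -148, -93 and -37. These are matches of letters only. The deposited locus of Crb3 opens at 57059105, upstream of this window.

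**Figure D1:**
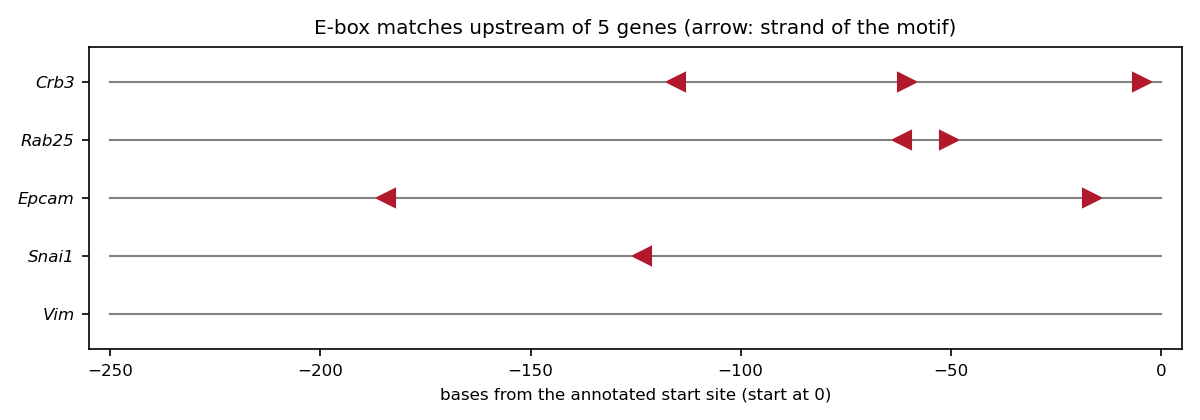
E-box matches in the 250 bases upstream of 5 genes, with the distance from the annotated start site in bases on the x axis and 1 line per gene. Each arrow is 1 match and points along the strand of the motif: Crb3 has 3, Rab25 and Epcam 2 each, Snai1 1 and Vim none.

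The targeted gene was low in the knockout samples. Gm2694, the locus of Trincr1 on chromosome 8 (87472812 to 87525554), was at 5.71 and 9.45 FPKM in wild type and at 0.0754 and 0 FPKM in the knockout in 2i + LIF. In PD + LIF it was at 6.18 and 6.56 FPKM in wild type and at 1.38 and 0.746 FPKM in the knockout. The 6 ESC markers (Pou5f1, Sox2, Nanog, Zfp42, Esrrb, Dppa5a) had a mean above 1 FPKM in every group. Their summed level was 3230 to 3520 FPKM over the 4 samples in 2i + LIF, 2660 to 3010 FPKM in wild type and 1680 to 1930 FPKM in the knockout in PD + LIF. Depth, estimated from the steps between low values, was 8.94 to 12.0 M fragments per sample.

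Snai1 was several times higher in Trincr1-/- ESCs in both media. This gene on chromosome 2 (167538195 to 167542814) was at 1.88 and 1.71 FPKM in wild type and at 8.98 and 11.5 FPKM in the knockout in 2i + LIF, with means of 1.79 ± 0.125 and 10.3 ± 1.80 (SD, n = 2). In PD + LIF it was at 3.24 and 2.06 FPKM in wild type and at 12.4 and 10.95 FPKM in the knockout. No wild-type sample reached 4 FPKM and no knockout sample was below 8 FPKM, in either medium. The ratio of the means was 5.72 in 2i + LIF and 4.40 in PD + LIF. On the log2(FPKM + 1) scale, which is used for all differences here and understates those of low genes, the difference was 2.00 ± 0.18 (SE) and 1.81 ± 0.18. The difference with the medium was 0.37 ± 0.18 in wild type and 0.18 ± 0.18 in Trincr1-/- ESCs, where the samples of the media overlapped.

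Zeb1 had overlapping levels in the genotypes. This gene, which encodes a zinc finger repressor that binds the same E-box, was at 3.33 and 3.84 FPKM in wild type and 3.56 and 3.07 FPKM in the knockout in 2i + LIF. In PD + LIF it was at 4.10 and 5.02 FPKM in wild type and 4.55 and 3.56 FPKM in the knockout. The genotypes overlapped in each medium, with differences of -0.09 ± 0.15 and -0.14 ± 0.15 (SE). Snai2, the closest relative of Snai1 listed, had a mean of 0.197 FPKM and was below 0.4 FPKM in every sample, under the filter on low values. Zeb2 had means of 0.0601 FPKM in wild type and 0.0773 FPKM in the knockout in 2i + LIF, and 1.74 and 3.94 FPKM in PD + LIF. The rise of Zeb2 with the knockout in PD + LIF, 0.87 ± 0.17 (SE), had a limma adjusted p of 0.0209, and the p reached 0.106 when 1 library was left out.

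Grhl2 was higher in Trincr1-/- ESCs together with Snai1. On chromosome 15 (37233036 to 37363569), it was at 0.768 and 0.720 FPKM in wild type and at 6.85 and 6.74 FPKM in the knockout in 2i + LIF. In PD + LIF it was at 1.63 and 0.937 FPKM in wild type and at 6.16 and 5.42 FPKM in the knockout. The genotypes lay far apart in both media, at a ratio of the means of 9.13 in 2i + LIF and 4.52 in PD + LIF. The differences were 2.16 ± 0.16 and 1.59 ± 0.16 (SE). The related factors Grhl1 and Grhl3 had lower means in the knockout than in wild type. Grhl3 had means of 4.41 and 3.91 FPKM in wild type and the knockout in 2i + LIF, and it fell in PD + LIF from 10.2 to 7.06 FPKM (limma adjusted p 0.0304), a call lost in 5 of 8 fits that left out 1 library, namely any 1 of PD + LIF or knockout replicate 2 of 2i + LIF. Grhl1 had means of 0.901 and 0.716 FPKM in 2i + LIF and 2.44 and 1.69 FPKM in PD + LIF, with an adjusted p of 0.692 and 0.131.

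Esrp1 followed the medium far more than the genotype. It encodes an RNA-binding protein that keeps the epithelial splice forms of many genes, and it was at 2.74 and 2.11 FPKM in wild type and at 1.54 and 1.56 FPKM in the knockout in 2i + LIF. After 4 days without CHIR99021 it was at 19.1 and 19.2 FPKM in wild type and at 15.8 and 14.7 FPKM in the knockout. Every sample in PD + LIF was above every sample in 2i + LIF, and within each medium both knockout samples were below both wild-type samples. The medium ratio was 7.91 in wild type and 9.84 in Trincr1-/- ESCs. The genotype difference was -0.42 ± 0.11 (SE) in 2i + LIF and -0.31 ± 0.11 in PD + LIF. Esrp2, the other member of this family, was between 4.08 and 5.25 FPKM in all 8 samples. The loci of Esrp1, Grhl2, Cdh2 and Zeb1 overlap noncoding entries whose group means were at most 0.492 FPKM.

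**Figure D2:**
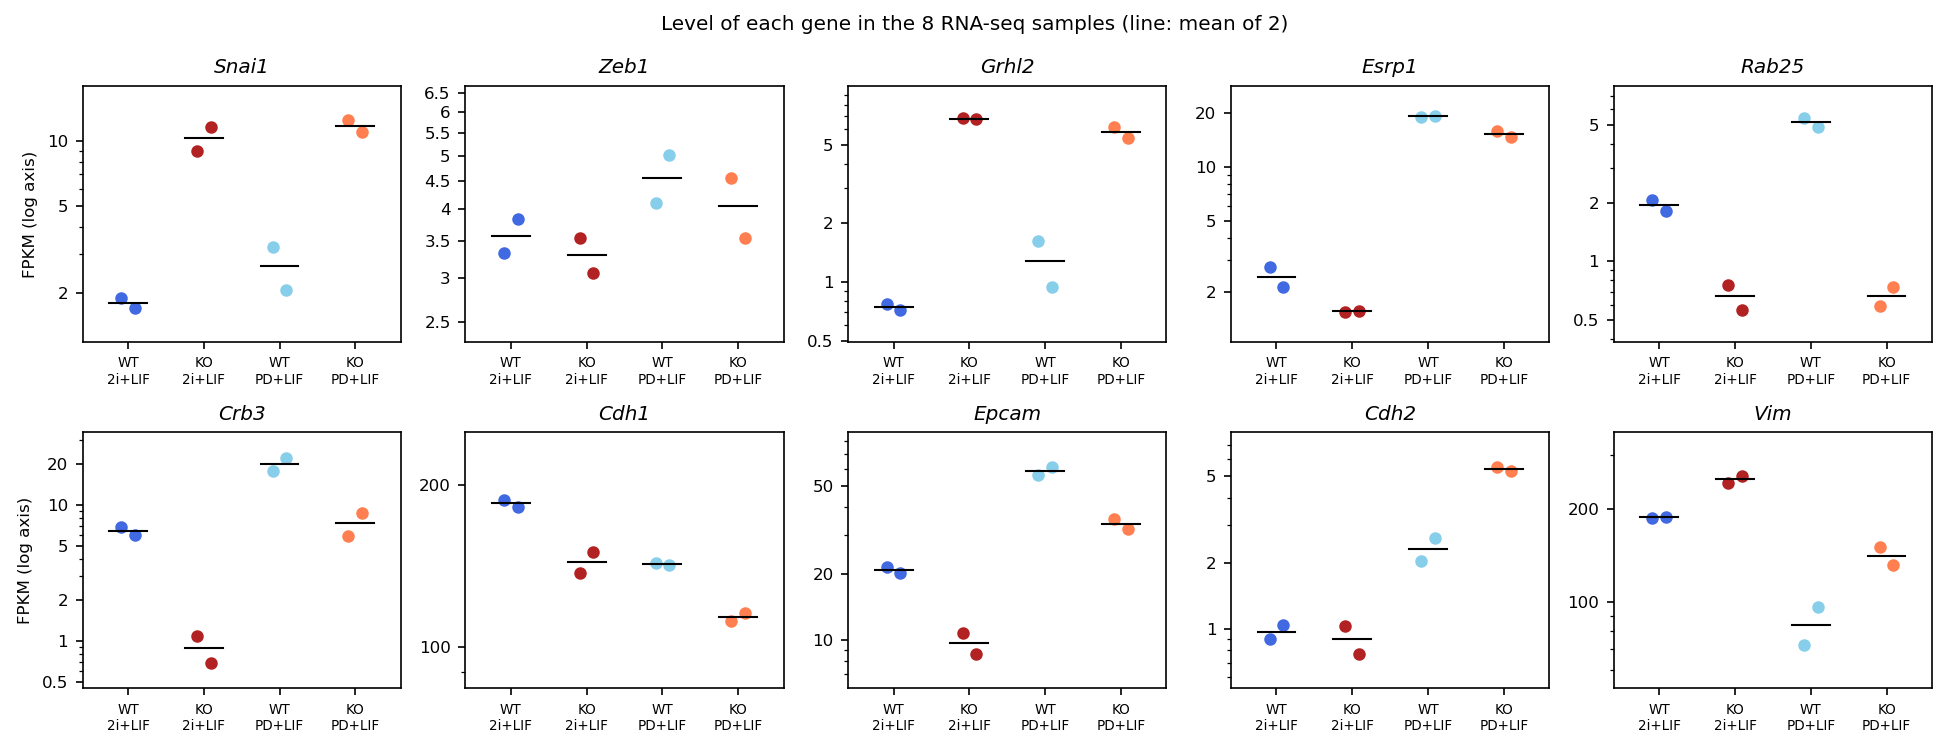
FPKM of each of the 10 genes (log axis, with its own range per gene) in wild-type (WT) and Trincr1-/- (KO) ESCs in 2i + LIF and PD + LIF. Each point is 1 sample and each line the mean of 2; Snai1 and Grhl2 are higher and Crb3 and Rab25 lower in the knockout in both media, while the genotypes of Zeb1 overlap.

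Rab25, a small GTPase of apical recycling endosomes, was lower in Trincr1-/- ESCs and differed most in PD + LIF. It lies on chromosome 3 (88542029 to 88548300). In 2i + LIF it was at 2.06 and 1.82 FPKM in wild type and at 0.759 and 0.564 FPKM in the knockout. Its levels in PD + LIF were at 5.43 and 4.89 FPKM in wild type and at 0.590 and 0.738 FPKM in the knockout. The 4 knockout samples were all below 1 FPKM whatever the medium, whereas wild type was 2.66 times higher in PD + LIF than in 2i + LIF. The level in Trincr1-/- ESCs was 34.1% of wild type in 2i + LIF and 12.9% in PD + LIF. The differences were -0.83 ± 0.13 and -1.89 ± 0.13 (SE), and they differed between the media by -1.06 ± 0.18. With an estimated 5.45 to 9.18 fragments per knockout sample, the level of Rab25 there was measured coarsely. Its relative Rab11a, which acts on the same endosomes, had means of 43.8 and 54.8 FPKM in wild type and the knockout in 2i + LIF and 67.0 and 71.3 FPKM in PD + LIF.

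Crb3, which anchors the Crumbs polarity complex at the apical membrane, was also lower in Trincr1-/- ESCs but responded to the medium in both genotypes. On chromosome 17 (57059105 to 57065918), it was at 6.85 and 5.99 FPKM in wild type and at 1.09 and 0.696 FPKM in the knockout in 2i + LIF. The PD + LIF samples were at 17.6 and 22.0 FPKM in wild type and at 5.90 and 8.72 FPKM in the knockout. The knockout samples in PD + LIF stood near the wild-type samples in 2i + LIF, and the genotypes did not overlap in either medium. The level in Trincr1-/- ESCs was 13.9% of wild type in 2i + LIF and 36.9% in PD + LIF. The differences were -1.98 ± 0.20 and -1.34 ± 0.20 (SE). The knockout libraries in 2i + LIF held an estimated 14.0 and 7.50 fragments of Crb3. The deposited locus overlaps that of Slc25a23 by 759 bases, and with no strand stated, reads from the shared stretch cannot be told apart. Slc25a23 had means of 5.55 and 2.14 FPKM in wild type and the knockout in 2i + LIF and 11.6 and 5.44 FPKM in PD + LIF. Dennd1c, 137 bases away on the other side, had means of 1.7 and 0.767 FPKM in 2i + LIF and 2.1 and 1.02 FPKM in PD + LIF. Both neighbours of Crb3 thus had lower means in the knockout.

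Cdh1 was somewhat lower in the knockout in both media. E-cadherin mRNA was at 188 and 182 FPKM in wild type and at 138 and 150.4 FPKM in the knockout in 2i + LIF. Without CHIR99021 it was at 143 and 142 FPKM in wild type and at 112 and 115.5 FPKM in the knockout. The knockout kept 77.7% of the wild-type level in 2i + LIF and 79.6% in PD + LIF, and in both media the genotypes did not overlap. Its difference was -0.36 ± 0.05 (SE) in 2i + LIF and -0.33 ± 0.05 in PD + LIF. Cdh1 was above at least 95.8% of the genes fitted in every group.

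Epcam, a surface glycoprotein of epithelia and ESCs, was at 21.5 and 20.2 FPKM in wild type and at 10.8 and 8.60 FPKM in the knockout in 2i + LIF. Its PD + LIF levels were at 56.0 and 61.2 FPKM in wild type and at 35.5 and 31.9 FPKM in the knockout. The knockout level was 46.5% and 57.5% of wild type. The genotype differences were -1.04 ± 0.11 and -0.78 ± 0.11 (SE). PD + LIF had the higher level in both genotypes, by 1.45 ± 0.11 and 1.70 ± 0.11.

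Cdh2, the N-cadherin gene that mesenchymal and neural cells use, separated the genotypes in PD + LIF. It was at 0.902 and 1.04 FPKM in wild type and at 1.03 and 0.765 FPKM in the knockout in 2i + LIF, where the genotypes overlapped. In the PD + LIF samples it was at 2.05 and 2.60 FPKM in wild type and at 5.54 and 5.32 FPKM in the knockout, a ratio of the means of 2.34. The genotype difference was -0.06 ± 0.14 (SE) in 2i + LIF and 0.96 ± 0.14 in PD + LIF, and these differed by 1.01 ± 0.19. E-cadherin mRNA was more abundant than N-cadherin mRNA in all 8 samples. The ratio of Cdh1 to Cdh2 was 208 and 176 in wild type and 133 and 197 in Trincr1-/- ESCs in 2i + LIF. In PD + LIF it was 69.9 and 54.7 in wild type and 20.2 and 21.7 in Trincr1-/- ESCs.

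Vim, the vimentin gene, was among the most abundant of the 10 genes in every group. It was at 187 and 188 FPKM in wild type and at 243 and 256 FPKM in the knockout in 2i + LIF. After 4 days without CHIR99021 it was at 72.4 and 95.8 FPKM in wild type and at 150.3 and 132 FPKM in the knockout. Both knockout samples were above both wild-type samples in each medium, and both genotypes had less Vim in PD + LIF. The genotype difference was 0.41 ± 0.12 (SE) in 2i + LIF and 0.75 ± 0.12 in PD + LIF, and the medium difference was -1.16 ± 0.12 in wild type and -0.82 ± 0.12 in Trincr1-/- ESCs.

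**Figure D3:**
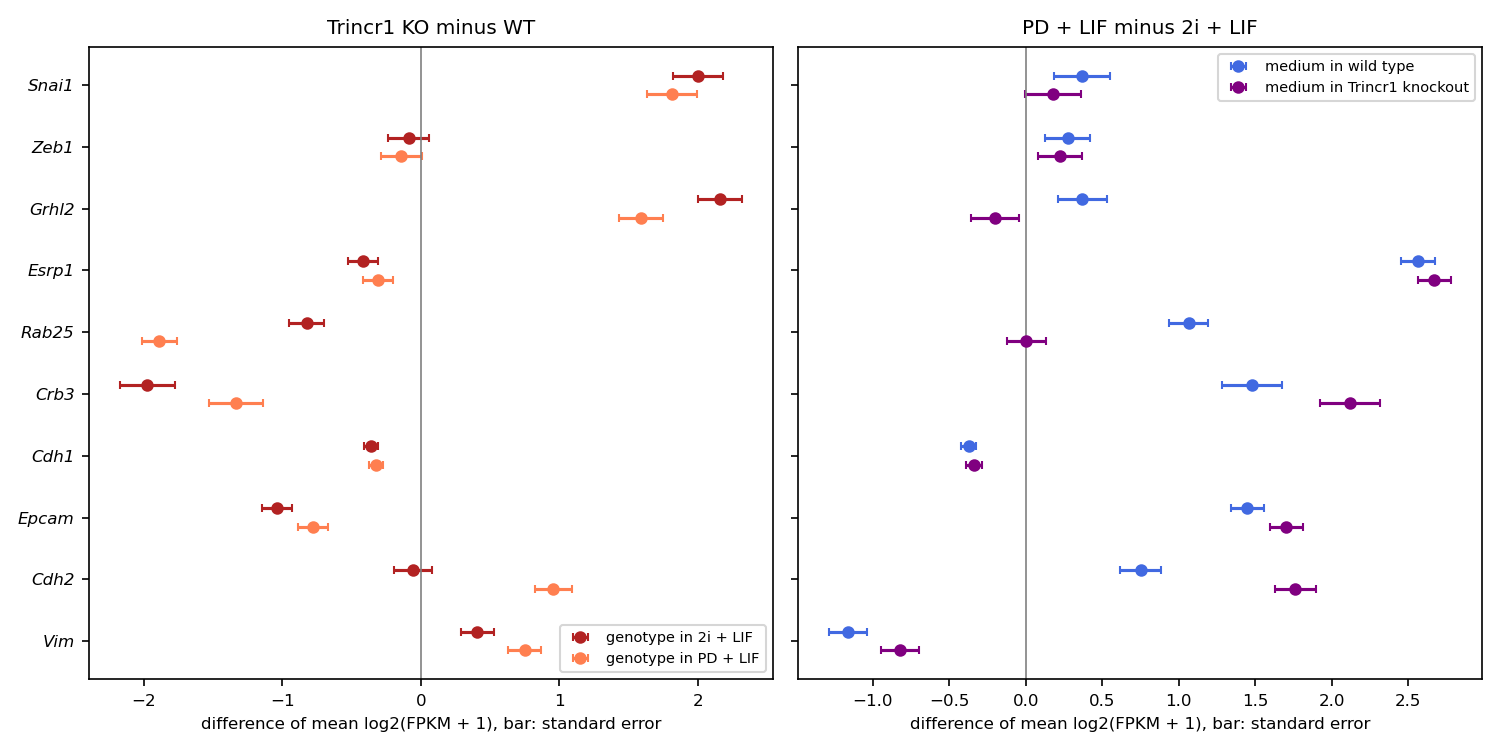
Differences of mean log2(FPKM + 1) for the 10 genes, with the knockout minus wild type in each medium on the left and PD + LIF minus 2i + LIF in each genotype on the right. Points are the fitted differences and bars their standard errors; Snai1 and Grhl2 lie at 1.59 or above and Crb3 at -1.34 or below for both genotype differences, and Rab25 differs with the medium by 1.07 in wild type and 0.00 in Trincr1-/- ESCs.

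FPKM is a level per length, so the order of the genes within a group can be read. In wild type in 2i + LIF the order of the mean levels was Vim, Cdh1, Epcam, Crb3, Zeb1, Esrp1, Rab25, Snai1, Cdh2 and Grhl2, and the samples of Vim and Cdh1 and of Rab25 and Snai1 overlapped. In Trincr1-/- ESCs in 2i + LIF Snai1 stood in place 3, overlapping Epcam, and Crb3 and Rab25 took the last places, where Cdh2 and Crb3 overlapped and so did Crb3 and Rab25. In PD + LIF Cdh1 led Vim in wild type and Vim led Cdh1 in Trincr1-/- ESCs, without overlap in either. Other neighbours that overlapped in PD + LIF were Crb3 and Esrp1, Rab25 and Zeb1, and Snai1 and Cdh2 in wild type, and Crb3 and Grhl2 and Grhl2 and Cdh2 in the knockout. Crb3 moved from place 4 to place 6 and Snai1 from place 8 to place 5 between the genotypes in PD + LIF. The ratio of Crb3 to Snai1 was 3.64 and 3.51 in wild type and 0.122 and 0.0604 in Trincr1-/- ESCs in 2i + LIF, and 5.42 and 10.7 against 0.475 and 0.796 in PD + LIF.

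In limma's fit across all genes (adjusted p under 0.05), the knockout differed from wild type for 1.21% of all genes in 2i + LIF and for 12.1% in PD + LIF. These shares are the background for the lists of other genes that follow. No calls are given for the 10 genes, which were chosen with these values known.

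Wider lists of junction, epithelial and mesenchymal genes set these 10 in context. They held 111 other genes, of which 99 were fitted. In 2i + LIF 1 of the 99 was called higher and 9 lower in the knockout, where 0.35% of all genes were higher and 0.855% lower. In PD + LIF 16 were higher and 13 lower, where 6.29% of all genes were higher and 5.77% lower. The median difference over the 99 was -0.001 in 2i + LIF and 0.031 in PD + LIF, beside 0.002 and 0.010 over all genes.

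Claudins and junction scaffolds were among the genes that fell in Trincr1-/- ESCs. Of 23 tight junction and polarity genes, 5 fell and none rose in 2i + LIF, and 5 fell and 2 rose in PD + LIF. Cldn6, a claudin of early embryonic epithelia, fell from a mean of 6.76 to 2.04 FPKM in 2i + LIF (limma adjusted p 0.00320) and from 44.9 to 22.2 FPKM in PD + LIF (adjusted p 0.00367). Cldn3 fell from 4.16 to 1.32 FPKM (adjusted p 0.00907) and from 4.57 to 2.40 FPKM (adjusted p 0.0137). Tjp3, which encodes the scaffold ZO-3, fell from 3.17 to 1.46 FPKM (adjusted p 0.0293) and from 18.2 to 6.25 FPKM (adjusted p 0.00203). Cgn, which encodes the junction protein cingulin, fell in 2i + LIF from 1.61 to 0.527 FPKM (adjusted p 0.0312), and Cldn4 fell in 2i + LIF from 57.1 to 35.4 FPKM (adjusted p 0.0201) and in PD + LIF from 97.1 to 34.9 FPKM (adjusted p 0.00103). With 1 library left out, Cgn and Tjp3 in 2i + LIF were no longer past the threshold whichever it was, with p up to 0.163 and 0.170.  Cldn4 in 2i + LIF lost its call in 6 of 8 such fits, without any 1 library other than the knockout ones of PD + LIF, with p up to 0.135. Cldn3 lost its call in 3 of 8 such fits in 2i + LIF and 4 of 8 in PD + LIF, with p up to 0.0724 and 0.0925.

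Calls in the adherens junction and desmosome list were all lower in the knockout. Of 17 adherens junction and desmosome genes, 1 fell in 2i + LIF and 3 in PD + LIF, and none rose. These were 5.88% and 17.6% of the list, beside 1.21% and 12.1% of all genes called in either direction. The median difference of the list was 0.002 and -0.019, so the list as a whole did not fall. Pkp2, a desmosomal plakophilin, fell from 5.27 to 1.21 FPKM in 2i + LIF (limma adjusted p 0.00252) and from 16.2 to 11.2 FPKM in PD + LIF (adjusted p 0.0267). In PD + LIF Cdh3, which encodes P-cadherin, fell from 31.9 to 17.9 FPKM (adjusted p 0.0161) and the desmoplakin gene Dsp from 9.57 to 6.15 FPKM (adjusted p 0.0359). From the list of epithelial regulators and products, the membrane protease gene St14 fell in both media, from 17.3 to 11.8 FPKM (adjusted p 0.0400) and from 27.2 to 13.7 FPKM (adjusted p 0.00254). Its inhibitors Spint1 and Spint2 fell in 2i + LIF, from 41.6 to 31.4 FPKM (adjusted p 0.0419) and from 72.0 to 51.1 FPKM (adjusted p 0.00498). When 1 library was left out, the calls in PD + LIF were lost in 4 of 8 fits for Pkp2, 3 of 8 for Cdh3 and 6 of 8 for Dsp. In 2i + LIF the call of St14 was lost in 6 of 8 such fits and that of Spint1 in 8 of 8.

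The simple epithelial keratin genes Krt8, Krt18 and Krt19 rose in the knockout in PD + LIF. Krt8 rose in Trincr1-/- ESCs from 66.9 to 144 FPKM (limma adjusted p 0.00274), Krt18 from 63.2 to 115 FPKM (adjusted p 0.00519) and Krt19 from 25.7 to 46.3 FPKM (adjusted p 0.0155). Krt7, the other keratin of the list, had means of 6.18 and 6.82 FPKM (adjusted p 0.710). Krt8, Krt18 and Krt19 were the 3 genes that rose among the 20 epithelial regulators and products in PD + LIF, where 3 fell. In 2i + LIF 3 of these 20 fell and none rose. The p reached 0.0570 for Krt18 without knockout replicate 1 of PD + LIF, and 0.0972 for Krt19, whose call was lost without any 1 of the 4 libraries of that medium. The summed level of the 6 trophoblast markers, a list that also holds Krt7, was 51.1 to 61.3 FPKM in wild type and 44.0 to 51.3 FPKM in the knockout in PD + LIF, most of it from Tfap2c, with means of 45.6 and 36.4 FPKM. Gata3 had means of 2.82 and 3.33 FPKM and Cdx2 of 0.0730 and 0.138 FPKM, and the defining marker Elf5 was at 0 in both wild-type samples and at 0.0279 and 0.112 FPKM in the knockout.

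Mesenchymal products gave few calls in 2i + LIF and more in PD + LIF. Of 16 genes, 1 rose and none fell in 2i + LIF, and 8 rose and 1 fell in PD + LIF, with a median difference of 0.39 there. Vcan, which encodes a matrix proteoglycan, rose in 2i + LIF from 4.31 to 8.15 FPKM (limma adjusted p 0.0217). In PD + LIF the collagen gene Col1a1 rose from 0.409 to 1.89 FPKM (adjusted p 0.00370), the matrix protease genes Mmp14 from 9.13 to 15.9 FPKM (adjusted p 0.00575) and Mmp2 from 5.98 to 9.42 FPKM (adjusted p 0.0358), and the galectin gene Lgals1 from 163 to 270.2 FPKM (adjusted p 0.00381). Among 6 factors of EMT other than Snai1 and Zeb1, Msx1 rose from 0.914 to 3.63 FPKM in PD + LIF (adjusted p 0.00824), beside Zeb2. None of the 6 was called in 2i + LIF, where their differences were -0.10 to 0.29. There 0 of the 6 had an unadjusted p under 0.05 in limma, beside 2253 of all 15430 genes. With 6 genes, a count of 0 does not show that they were unchanged. With 1 library left out, the call of Mmp2 was lost in 8 of 8 fits, that of Vcan in 6 of 8 and that of Msx1 in 2 of 8. The 6 fibroblast markers, which include Col1a1, summed to 4.14 to 4.59 FPKM in wild type and 5.56 to 6.34 FPKM in the knockout in PD + LIF, with Lum at 0 in all 4 samples. The summed ESC markers given above were also lower in those knockout samples, and the part of either in these results was not tested.

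Partners of SNAI1 were compared between the genotypes in the same way. Of 17 genes for corepressors and for turnover of SNAI1, such as Hdac1, Kdm1a and Gsk3b, none was called in 2i + LIF. There 1 of the 17 had an unadjusted p under 0.05 in limma, beside 2253 of all 15430 genes, and the differences of the 17 were -0.04 to 0.26. In PD + LIF 1 rose and 1 fell, 11.8% of the list beside 12.1% of all genes. In that medium 8 of the 17 had an unadjusted p under 0.05, 3 higher and 5 lower in the knockout, beside 4390 of all 15430 genes. Ajuba, an adaptor that binds SNAI1, had means of 54.6 and 66.5 FPKM (adjusted p 0.0493), and the deacetylase gene Hdac2 had 96.3 and 82.7 FPKM (adjusted p 0.0297). The call of Ajuba was lost in 8 of 8 fits that left out 1 library and that of Hdac2 in 6 of 8, without any 1 library other than the knockout ones of 2i + LIF, with p up to 0.227 and 0.146. Over all 99 genes of the lists, the 10 calls in 2i + LIF became 3 to 7 with 1 library left out, with 3 of them left without wild-type replicate 1 or either knockout library of that medium, 4 without wild-type replicate 2 and 5 without either wild-type library of PD + LIF. The 29 calls in PD + LIF became 11 without knockout replicate 1, 13 without wild-type replicate 1, 17 without wild-type replicate 2 and 18 without knockout replicate 2 of that medium.

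**Figure D4:**
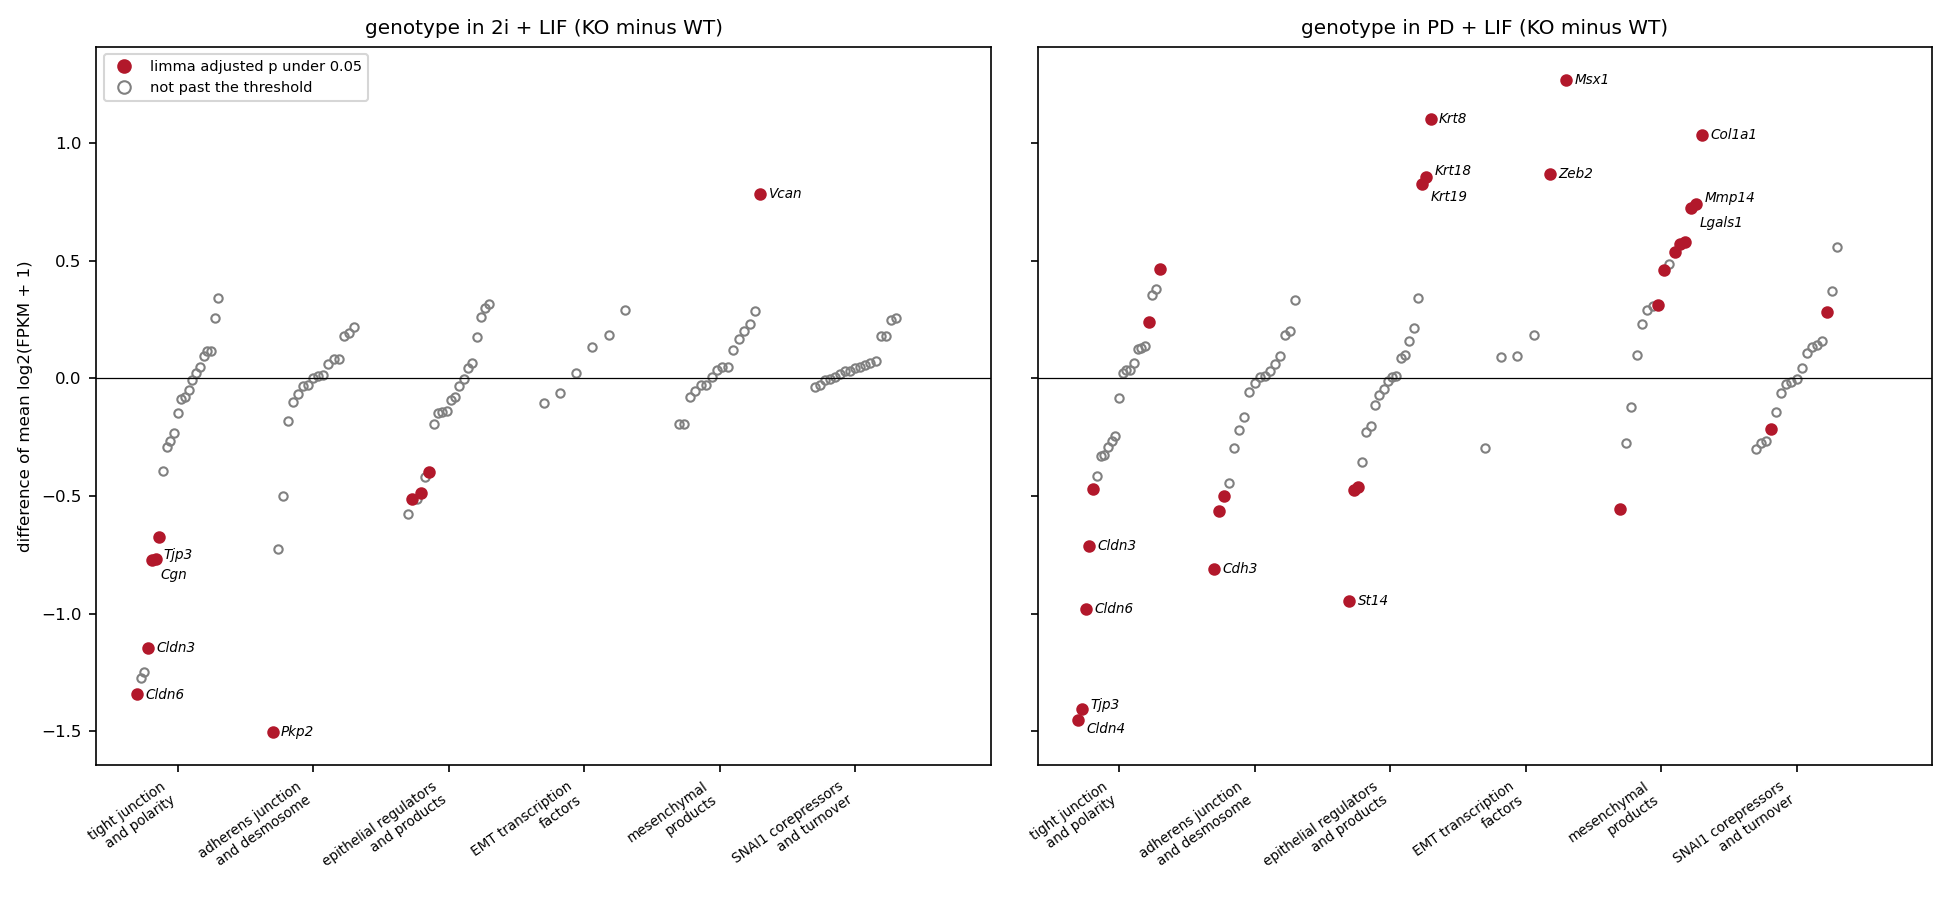
Difference of mean log2(FPKM + 1) between Trincr1-/- and wild-type ESCs for the 99 genes of 6 lists, in 2i + LIF on the left and in PD + LIF on the right. Each point is 1 gene, ordered within its list, and filled where limma's adjusted p is under 0.05; labels name filled genes that differ by more than 0.7, such as Pkp2 at -1.50 in 2i + LIF and Krt8 at 1.10 in PD + LIF.

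Most genes of the lists differed between the media in both genotypes. The PD + LIF samples were washed and kept for 4 days after plating, and the culture time of the 2i + LIF samples is not given, so culture time and the loss of CHIR99021 cannot be told apart. Of all genes, 52.2% were called between the media in wild type (30.9% higher and 21.3% lower in PD + LIF) and 50.0% in Trincr1-/- ESCs (29.6% and 20.3%). The direction of that split depended on scaling: of the calls in wild type, 4765 were higher and 3283 lower with FPKM as deposited, 3803 and 3946 after quantile normalization, and 4114 and 3978 after median ratio scaling. In Trincr1-/- ESCs the same 3 splits were 4572 and 3136, 3578 and 3838, and 4017 and 3827. Of the 10 genes, Crb3, Epcam, Esrp1 and Cdh2 had higher and Cdh1 and Vim lower means in PD + LIF in both genotypes, and Rab25 had a higher mean in wild type. The medium difference of Rab25 in Trincr1-/- ESCs was 0.00 ± 0.13 (SE).

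Of the 99 genes of the lists, 62 rose and 14 fell with the medium in wild type, and 60 rose and 17 fell in Trincr1-/- ESCs. The tight junction list had 16 and 17 genes that rose and 2 that fell in each genotype, and the adherens junction and desmosome list had 13 that rose and 3 that fell in each. Cldn6 rose in wild type from 6.76 to 44.9 FPKM (limma adjusted p 6.13e-06), Cgn from 1.61 to 12.1 FPKM (adjusted p 1.19e-05) and Krt18 from 2.13 to 63.2 FPKM (adjusted p 1.98e-06). Mesenchymal genes rose along with the epithelial ones. Tagln, which encodes the actin-binding protein transgelin, rose from 0.332 to 50.7 FPKM (adjusted p 5.41e-06), and Acta2, the smooth muscle actin gene, from 0.0528 to 7.22 FPKM (adjusted p 2.24e-05). Trophoblast markers summed to 16.7 to 23.0 FPKM in 2i + LIF and 44.0 to 61.3 FPKM in PD + LIF, with means of 14.01 and 45.6 FPKM for Tfap2c in wild type, while Cdx2 had means of 0.746 and 0.0730 FPKM and Eomes of 3.04 and 1.54 FPKM there. Primitive endoderm markers summed to at most 1.62 FPKM in 2i + LIF and to 4.62 to 7.48 FPKM in PD + LIF. Mesoderm markers went down from 4.80 to 5.57 FPKM to 1.36 to 1.96 FPKM. The part of other cell types in these differences was not tested.

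The genotype difference was compared between the media in the same fit. Among all genes 1.81% were called (0.992% with the higher and 0.817% with the lower value in PD + LIF). Of the 99 genes of the lists 10 were called, 7 with the higher and 3 with the lower value in PD + LIF, and this count was 0 to 4 with 1 library left out.

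Genes with the pattern most like 4 of the 10 were ranked by Pearson's r of log2(FPKM + 1) over the 8 samples, among 2309 genes with a mean of at least 1 FPKM and an SD of at least 0.5. The points are 4 groups of 2 samples that share their medium and genotype, so r is a description and carries no p. For Snai1 the gene most alike was Grhl2 (r = 0.986), followed by Clvs2 (0.933), 4930539J05Rik (0.929), Kcp (0.910) and Klhl13 (0.877), and the gene in place 100 had an r of 0.463. The same 4 genes followed Snai1 in the ranking for Grhl2. Snai1 and Grhl2 were both chosen with these levels known, so their high r is not an independent result. Rab25 was most like Rec114 (0.993), the claudin gene Cldn4 (0.990), Capn5 (0.974), Cblc (0.954) and Camk2b (0.949). Crb3 was most like Mboat2 and the adhesion gene Mcam (0.991 each), Grb7 (0.988), Hook1 (0.987) and its neighbour Slc25a23 (0.986), and its pattern was common, with 0.884 in place 100. Cldn4 had means of 57.1, 35.4, 97.1 and 34.9 FPKM in wild type and the knockout first in 2i + LIF and then in PD + LIF, so that, as with Rab25, the knockout means of the media were close.

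In the TRIM71 pulldown, Vim was the 1 gene of the 10 that passed the cutoffs of the study, an input above 2 FPKM and a fold of enrichment above 3, which 5.10% of the 9651 transcripts above the input cutoff passed. The table gives 1 value for the immunoprecipitation (IP) and 1 for the input, so the folds have no replicate check. Vim had 51.3 FPKM in input RNA and 139 FPKM in IP RNA, or 311 FPKM after the deposited scaling, a fold of enrichment of 6.07 and rank 185. It exceeded 99.1% of the 1279 transcripts with an input within 1.5-fold of its own. The fold was 2.70 before scaling, so the call rests on the factor of 2.25 by which the IP was scaled. The call also rests on the input value. Vim had a mean of 188 FPKM in wild type in 2i + LIF, 3.66 times its input, in separately normalized RNA-seq. Input RNA was selected on poly-T beads and IP RNA was not, and the empty-vector pulldown was not used. The part of these in the fold was not tested.

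Transcripts of the other genes did not pass the cutoffs. Snai1 had 5.0 FPKM in input RNA and 1.4 FPKM in IP RNA, a fold of 0.660, and Cdh1 at 247 and 31.2 FPKM, a fold of 0.283. Epcam was at 12.9 and 0.4 FPKM, a fold of 0.0620. Grhl2 (input 3.7 FPKM), Rab25 (2.4 FPKM) and Crb3 (14.1 FPKM) were listed at 0 in the IP, as were 69.4%, 77.8% and 46.0% of transcripts with a similar input, so a 0 marks no detection at this depth. Cdh2, Esrp1 and Zeb1 had inputs of 0.4, 0.7 and 1.1 FPKM, below the cutoff, and were at 0 in the IP. Of the 99 genes of the lists, 63 had an input above 2 FPKM and 2 passed, the desmosome gene Jup (3.91) and the polarity gene Llgl2 (4.35).

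**Figure D5:**
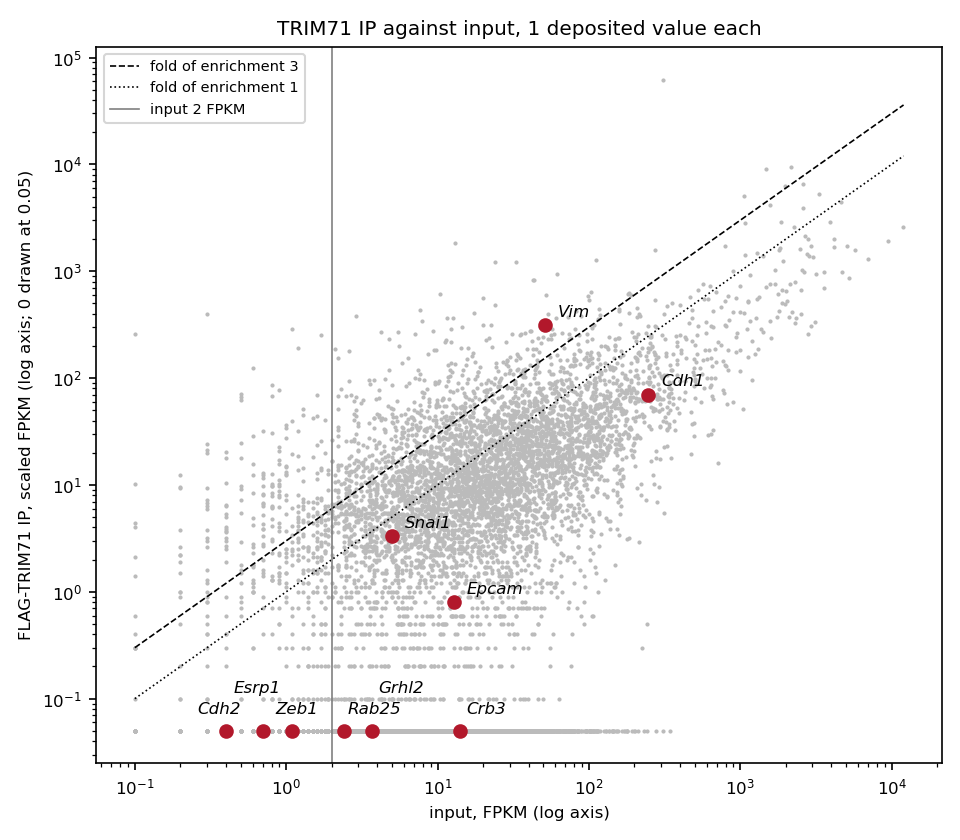
Scaled FPKM in the FLAG-TRIM71 IP against FPKM in the input (log axes, values of 0 drawn at 0.05) for 14054 transcripts in grey and the 10 genes in red. Lines mark folds of enrichment of 3 and 1 and the input cutoff of 2 FPKM; Vim, at 51.3 and 311 FPKM, is the red point above the line for 3.

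The input of the pulldown, also from ESCs in 2i + LIF, gives a further level for each gene. Snai1 was at 5.0 FPKM in the input, between the means of 1.79 FPKM in wild type and 10.3 FPKM in the knockout, and Grhl2 was at 3.7 FPKM, between 0.744 and 6.80 FPKM. Crb3 was at 14.1 FPKM beside 6.42 FPKM in wild type, and Vim at 51.3 FPKM beside 188 FPKM. These ratios were ranked against 10869 genes found in both tables with a wild-type mean of at least 1 FPKM in 2i + LIF. The ratio to wild type of Grhl2, 4.97, was above that of 98.7% of them, and that of Snai1, 2.79, above 94.0%. Grhl2 itself, at 0.744 FPKM in wild type, lay below that filter, where ratios are less precise. The tables were normalized separately, the input is 1 value, and the labels do not give its ESC line. The study ran the pulldown in ESCs that overexpressed FLAG-TRIM71. For these reasons the levels are only set side by side.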

How the data were processed

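The authors aligned the reads of the 8 RNA-seq samples with STAR 2.5.0 and quantified genes with Cufflinks 2.2.1, and they deposited normalized FPKM values per gene and sample. The sources name mm9, while 76.8% of 13835 genes lay within 1000 bases of GRCm38 at both ends and 5.18% of 13463 within the same distance of NCBIM37, so coordinates are given as GRCm38. The pulldown table, also deposited by the authors, lists a single FPKM value of input and of IP for each transcript, rounded to 1 decimal. A second pair of deposited columns gives the same signal after the IP was multiplied by 2.25. Input RNA was selected on poly-T beads and IP RNA was not, per the labels. A deposited column with the authors' own ratio of IP to input was not used, and neither the pulldown from empty-vector ESCs nor Snai3, Foxc2 and Foxf1 were analysed here.

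The table held 41260 entries, of which 1 per gene identifier was kept. Genes with a mean above 0.2 FPKM were compared on log2(FPKM + 1) with limma (version 3.58.1, under R 4.3.3), in 1 model of the 4 groups, with a variance trend, 4 residual degrees of freedom and Benjamini-Hochberg adjustment over 15430 genes (threshold 0.05). FPKM sums were 497115 to 519651, and no further scaling was applied. The fit was tested on simulated data. Fragments per gene were estimated from the steps between low values and the longest annotated transcript, so they are approximate, and the depth of the pulldown libraries is unknown. Folds of enrichment were the scaled IP over the scaled input. Motifs were searched on both strands of RefSeq windows. Python 3.11.15 with pandas 2.3.3, numpy 2.4.6 and matplotlib 3.10.9 was used for tables and plots.

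The 10 genes and the lists were chosen with earlier results of these data known. Genes named from the lists are at most 4 per list and comparison, those called with the largest difference whose replicates do not overlap, together with relatives of the 10 genes (Snai2, Zeb2, Grhl1, Grhl3 and Esrp2). Rab11a, Krt7, single trophoblast markers, Cldn4 in 2i + LIF and the 2 list genes enriched in the pulldown were named after their values were seen. Alternatives changed the pseudocount, the filter, the normalization, the variance trend, the groups fitted, the replicate block, the rule for calls, the scaling of the IP and the samples included.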

Additional observations from a re-analysis of the deposited data

Results flagged for a closer look

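For 10 genes of the lists, the genotype difference itself differed between the media in limma's fit across all genes, at an adjusted p under 0.05. All values are the difference in PD + LIF minus that in 2i + LIF on the log2(FPKM + 1) scale. The keratin genes Krt8, Krt18 and Krt19 had the highest values, 1.295, 1.433 and 1.338, with adjusted p of 0.0211, 0.0188 and 0.0331. The plakophilin gene Pkp2 had 1.005 (adjusted p 0.0295), the cingulin gene Cgn 0.902 (adjusted p 0.0490), Col1a1 1.112 (adjusted p 0.0280) and the integrin gene Itga5 0.516 (adjusted p 0.0443). Cldn4 had -0.778 (adjusted p 0.0376), the polarity kinase gene Prkci -0.585 (adjusted p 0.0331) and the fibronectin gene Fn1 -0.756 (adjusted p 0.0188). All 10 lost the call in at least 6 of the 8 fits that left out 1 library, with p up to 0.102 for Krt18 and Fn1 and 0.171 for Cgn.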

How the results depend on the processing

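With 2 samples per group, calls between the genotypes depend on the fit. In 2i + LIF, the 186 calls among all genes became 122 without a filter, 302 by a fold rule of 2 and 0 when only the groups compared were fitted, where 2106 genes had an unadjusted p under 0.05 in limma. The 10 calls among the list genes became 4 without a filter and 0 with only those groups. In PD + LIF, 1861 and 29 calls became 316 and 13 with only those groups and 492 and 7 by the fold rule. The fold rule gave 2333 and 30 calls for the medium in wild type and 2411 and 31 in Trincr1-/- ESCs. For the difference between media, 279 and 10 calls became 138 and 5 without a filter and 88 and 4 without the variance trend, and the fold rule and the smaller fit do not apply. Leaving out 1 library gave 40 to 113 calls among all genes and 3 to 7 among the list genes in 2i + LIF, 335 to 1519 and 11 to 26 in PD + LIF, 6473 to 7937 and 67 to 73 for the medium in wild type, 6136 to 7552 and 68 to 77 in Trincr1-/- ESCs, and 3 to 34 and 0 to 4 for the difference between media. In the pulldown, 492 enriched transcripts became 156 unscaled and 1076 with each library scaled without its 100 highest transcripts, and the 1 enriched gene of the 10 became 0 unscaled.

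The replicate numbers did not pair the samples, since deviations of samples with the same number correlated between -0.0539 and 0.00634. With the replicate block, the calls in 2i + LIF were 111 and 6 and those for the difference between media 39 and 3.

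Across the alternatives run, 607 values of the 10 genes moved by less than 1 SD between replicates and 76 by more. Of the values of named list genes, 1349 kept their side of the threshold, 251 lost their call and 1 changed sign, the genotype difference of Krt7 in PD + LIF, which was not called and ranged from -0.192 without wild-type replicate 2 to 0.51 without wild-type replicate 1 of that medium.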

Other observations

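Genes of the lists outside the 10 also differed between the media. Among factors of EMT, Twist1 rose from 0.443 to 1.29 FPKM in wild type (limma adjusted p 0.00818) and from 0.344 to 1.61 FPKM in Trincr1-/- ESCs (adjusted p 0.00163), and both were called in each of the 8 fits that left out 1 library. Tcf4 fell from 14.7 to 8.69 FPKM in wild type (adjusted p 0.000730) and from 16.2 to 9.34 FPKM in Trincr1-/- ESCs (adjusted p 0.000589). Gsc, the goosecoid gene, had means of 2.67 and 2.06 FPKM in wild type (adjusted p 0.151) and fell from 3.51 to 1.501 FPKM in Trincr1-/- ESCs (adjusted p 0.00185), and the difference between the genotypes had an adjusted p of 0.169. Among 17 genes for corepressors and turnover of SNAI1, 9 rose and 3 fell in wild type and 5 rose and 4 fell in Trincr1-/- ESCs, which is 70.6% and 52.9% of the list beside 52.2% and 50.0% of all genes. Loxl2, a lysyl oxidase that binds SNAI1, rose from 0.0534 to 1.59 FPKM (adjusted p 0.000416) and from 0.0672 to 2.82 FPKM (adjusted p 8.32e-05). Hdac2 fell from 130.7 to 96.3 FPKM (adjusted p 0.000277) and from 127 to 82.7 FPKM (adjusted p 5.61e-05). The F-box gene Btrc, whose product targets SNAI1 for degradation, rose in wild type from 5.55 to 9.09 FPKM (adjusted p 0.00182) and had means of 6.43 and 7.34 FPKM in Trincr1-/- ESCs (adjusted p 0.210). The Polycomb gene Suz12 had means of 70.5 and 61.6 FPKM in wild type (adjusted p 0.113) and fell from 72.2 to 50.03 FPKM in Trincr1-/- ESCs (adjusted p 0.00243). The difference between the genotypes had an adjusted p of 0.156 for Btrc and 0.220 for Suz12.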
